A study of Mus musculus with 6 samples.

Results

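The 10 genes described here are the FOXO transcription factors Foxo1, Foxo3 and Foxo4, the insulin receptor Insr with its adaptors Irs1 and Irs2, and 4 genes tied to them, Pik3ip1, Ccng2, Cited2 and Bcl6. They were picked by name, with earlier results of these data known, and all 10 were found among the 21878 genes of the deposited table. The RNA-seq libraries came from NIH3T3, an immortalised mouse embryo fibroblast line, and the labels give every sample a radiation injury and the 72 h time point. The 2 groups of 3 libraries each were cells given exosomes, which the series title calls plasma-derived and which are small vesicles shed by cells, and cells given PBS, the saline control. The labels state no radiation dose and do not say that replicates are separate cultures. The p-values therefore measure only the differences among these libraries, and those may be technical.

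FOXO factors are forkhead proteins that switch on genes of cell cycle arrest, cell death, stress defence and nutrient use. When insulin or a growth factor binds its receptor, the IRS adaptors recruit phosphoinositide 3-kinase (PI3K), and the kinase AKT then phosphorylates the FOXO proteins, which leave the nucleus bound to 14-3-3 proteins. FOXO activity is therefore set largely by where the protein is, which transcript levels do not measure. Insr and Irs2 are themselves FOXO targets in other tissues, which closes a feedback loop. Pik3ip1 encodes a membrane protein that restrains the catalytic subunit of PI3K, Ccng2 a cyclin that slows the cell cycle, Cited2 a co-regulator that binds CBP and p300, and Bcl6 a zinc finger repressor, and all 4 have been described as FOXO targets in other cells.

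Depth was estimated at 18800000 to 22000000 counted reads per library, and 10080 to 10271 genes reached 1 FPKM in each (fragments scaled to transcript length and library size, the unit inferred for the deposited values). The 10 listed fibroblast markers summed to 4053 to 4522 FPKM with PBS and 5740 to 5932 with exosomes. Vim and Col1a2 were the highest of them, and 9 of the 10 reached 1 FPKM in at least 3 libraries. Marker lists of erythroid, endothelial and epithelial cells each summed to at most 2.03 FPKM in any library, platelet markers to 3.39 to 5.15 and adipocyte markers to 0.759 to 3.58. Leukocyte markers summed to 7.44 to 11.9 FPKM with PBS and 4.46 to 5.28 with exosomes, while Cd3e and Tyrobp were among those listed at 0 in every library.

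The start-site windows of 4 of these genes are shown because 3 of them hold a short FOXO-type element and the fourth belongs to the gene with the largest rise. Each runs from 250 bases before to 50 bases after the annotated start, 5′ to 3′ on the strand of the gene, taken from RefSeq on GRCm38.p6, a later build than the mm9 of the study. The windows lie at chr1:82291390-82291689 (minus strand) for Irs1, chr8:11008880-11009179 (minus strand) for Irs2, chr5:93267323-93267622 (plus strand) for Ccng2 and chr11:3330481-3330780 (plus strand) for Pik3ip1, and capitals mark the element CAAAACA or its reverse complement TGTTTTG.
Irs1: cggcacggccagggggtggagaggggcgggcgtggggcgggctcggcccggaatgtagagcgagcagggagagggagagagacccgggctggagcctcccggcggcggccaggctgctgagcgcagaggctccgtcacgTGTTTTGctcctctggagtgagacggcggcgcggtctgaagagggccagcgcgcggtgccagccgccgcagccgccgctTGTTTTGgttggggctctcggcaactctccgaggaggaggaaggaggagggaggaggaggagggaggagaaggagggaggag
Irs2: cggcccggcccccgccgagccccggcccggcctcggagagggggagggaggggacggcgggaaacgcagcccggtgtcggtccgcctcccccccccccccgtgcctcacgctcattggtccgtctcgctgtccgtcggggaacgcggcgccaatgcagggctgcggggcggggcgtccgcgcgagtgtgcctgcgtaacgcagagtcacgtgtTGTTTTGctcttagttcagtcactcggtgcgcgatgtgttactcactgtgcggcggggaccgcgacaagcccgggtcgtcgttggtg
Ccng2: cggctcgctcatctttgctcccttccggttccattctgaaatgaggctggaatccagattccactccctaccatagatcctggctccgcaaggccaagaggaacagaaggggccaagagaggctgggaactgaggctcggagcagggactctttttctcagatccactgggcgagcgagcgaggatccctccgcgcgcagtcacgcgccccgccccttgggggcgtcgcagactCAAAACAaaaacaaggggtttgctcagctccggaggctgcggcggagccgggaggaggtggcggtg
Pik3ip1: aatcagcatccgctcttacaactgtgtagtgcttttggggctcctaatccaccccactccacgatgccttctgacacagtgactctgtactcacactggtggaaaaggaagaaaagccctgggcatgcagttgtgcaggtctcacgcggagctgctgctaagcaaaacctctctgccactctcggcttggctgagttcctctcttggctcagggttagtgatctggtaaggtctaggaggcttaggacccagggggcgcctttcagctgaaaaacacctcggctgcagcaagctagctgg

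Promoter windows were at hand for 8 of the 10 genes, 9 windows in all because Bcl6 has more than 1. CAAAACA, the core of the insulin response element, and GTAAACA, the high-affinity FOXO consensus, were searched on both strands. Irs1 held CAAAACA on the opposite strand at 2 places, starting 111 and 32 bases before the start site. Irs2 held it on the opposite strand 37 bases before the start and Ccng2 on its own strand 16 bases before. GTAAACA was found in 0 of the 9 windows. Over all 32851 windows of the same length 6.28% held CAAAACA and 3.65% held GTAAACA on either strand. A match is a run of letters and not a bound site. Of the 3 genes with a match, Ccng2 fell with exosomes and Irs1 and Irs2 did not pass the test on FPKM.

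With exosomes Foxo1, Foxo4 and Pik3ip1 rose and Ccng2 and Bcl6 fell, while Foxo3, Irs1, Irs2, Insr and Cited2 did not pass the test. All 10 genes passed the filter on low values, and 5 of them were called at an adjusted p under 0.05 (limma on log2(FPKM + 1)), 3 raised and 2 lowered. Of the 10274 genes tested 43.8% were called, 25.4% raised and 18.4% lowered, so the share of called genes here is near that of all genes. The median absolute log2 change was 0.20 in these genes and 0.15 over all tested genes. Changes of at least 0.5 on the log2 scale were found in 2 of the 10 genes, Pik3ip1 and Bcl6, and in 7.08% of all tested genes. The exosome and PBS values did not overlap in 6 of the 10 genes, against 55.6% of all tested genes.

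**Figure D1:**
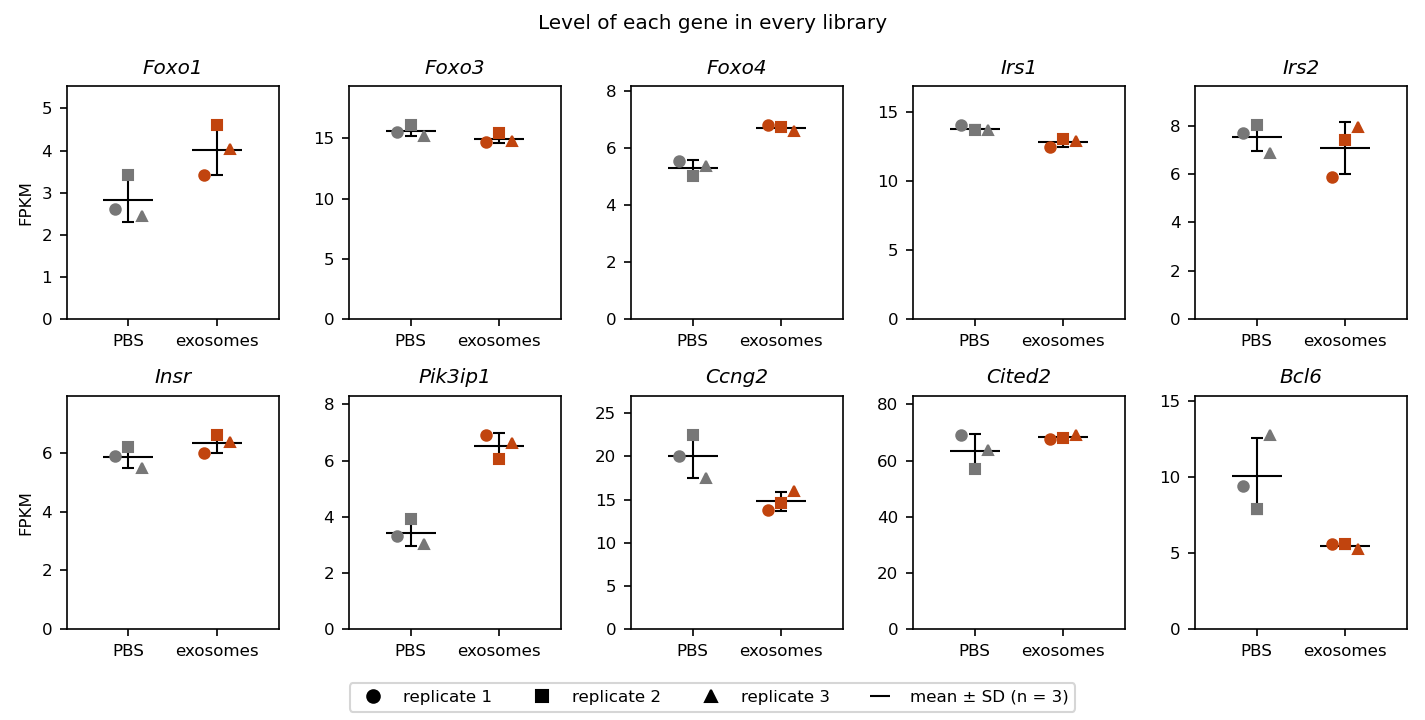
FPKM of each gene in every library, with 1 point per library (shape gives the replicate number) and the mean ± SD of 3 libraries in black, PBS in grey and exosomes in orange; each axis starts at 0. Pik3ip1 and Bcl6 show the widest separation of the groups, and in Cited2 and Irs2 the exosome and PBS points lie in the same range.

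The FOXO genes differed in both level and response. Foxo3 was the most abundant of them on the FPKM scale, followed by Foxo4 and Foxo1, and this order held in all 6 libraries. Foxo1, the family member best known for insulin control of liver glucose output and of fat cell formation, was at 2.61, 3.41 and 2.46 FPKM with PBS and 3.42, 4.61 and 4.03 with exosomes. The groups did not overlap, but the lowest exosome library and the highest PBS library lay side by side at 3.42 and 3.41. The rise from 2.83 ± 0.508 to 4.02 ± 0.595 FPKM was a log2 change of 0.39 ± 0.11 (SE, adjusted p = 0.0180). This call ended without PBS replicate 1 (adjusted p = 0.0683), without PBS replicate 3 (0.0517), without exosome replicate 2 (0.0689) and without the filter on low values (0.0551).

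Foxo4, the X-linked member of the family, was at 5.54, 5.02 and 5.39 FPKM with PBS and 6.82, 6.73 and 6.59 with exosomes. Every exosome library lay above every PBS library, and the spread within each group was small. The mean rose 1.26-fold, from 5.32 ± 0.266 to 6.71 ± 0.116 FPKM, a log2 change of 0.29 ± 0.06 (adjusted p = 0.00281), and the call held under all 13 alternatives tried. Foxo3, which in many cells drives genes of cell death and autophagy, was at 15.5, 16.1 and 15.2 FPKM with PBS and 14.7, 15.4 and 14.8 with exosomes. These values overlap, and the log2 change of −0.06 ± 0.05 did not pass (adjusted p = 0.364, 95% interval −0.16 to 0.05). An overlapping long non-coding gene, Gm38485, adds uncertainty to the Foxo3 level, since the sources used here do not say whether reads were counted by strand.

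Within each library the make-up of the FOXO transcripts was compared on the FPKM scale. Foxo3 took 65.5%, 65.7% and 65.9% of the summed FPKM of the 3 genes with PBS and 59.0%, 57.5% and 58.2% with exosomes, with no overlap between the groups. The share of Foxo4 was 22.4% ± 1.73 with PBS and 26.1% ± 1.08 with exosomes, and again the groups did not overlap. The share of Foxo1 was 11.9% ± 1.73 and 15.6% ± 1.79, and here the groups overlapped. The summed level was 23.7 ± 0.785 FPKM with PBS and 25.7 ± 0.905 with exosomes. Foxo6, the remaining mouse FOXO gene, lay between 0.228 and 0.434 FPKM and was below the filter.

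**Figure D2:**
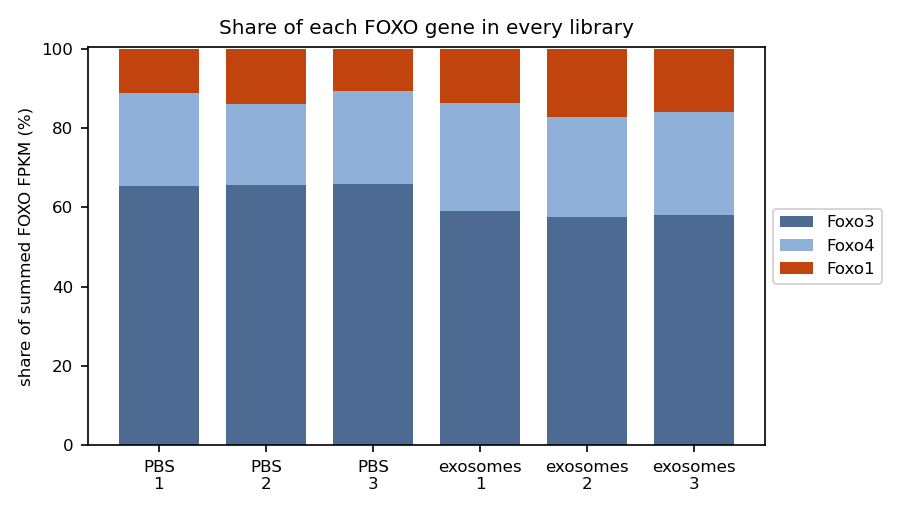
Share of Foxo3, Foxo4 and Foxo1 in their summed FPKM, as stacked bars for each of the 6 libraries (y axis in percent, starting at 0). The Foxo3 segment ends at 65.5% to 65.9% in the PBS libraries and at 57.5% to 59.0% in the exosome libraries.

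Neither the receptor gene nor its adaptors passed the test. Insr, the insulin receptor tyrosine kinase, was at 5.91, 6.21 and 5.48 FPKM with PBS and 5.99, 6.62 and 6.36 with exosomes. The values overlap, and the log2 change of 0.09 ± 0.06 did not pass (adjusted p = 0.251, 95% interval −0.05 to 0.23). Irs1, the adaptor that carries insulin and IGF-1 signals in fibroblasts and muscle, was at 14.1, 13.7 and 13.7 FPKM with PBS and 12.5, 13.1 and 12.9 with exosomes. All 3 exosome libraries lay below the PBS libraries, yet the difference was small, a log2 change of −0.10 ± 0.05, and did not pass (adjusted p = 0.103). With libraries rescaled by median ratios it did (log2 change −0.13, adjusted p = 0.0406), and the authors' deposited table, which tests counts, lists Irs1 at 0.889-fold with an adjusted p of 0.0351.

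Irs2, the adaptor whose transcript insulin represses in liver, was at 7.68, 8.03 and 6.88 FPKM with PBS and 5.88, 7.41 and 7.95 with exosomes. The groups overlap, and exosome replicate 1 was the lowest of the 6 libraries. The log2 change of −0.09 ± 0.10 did not pass (adjusted p = 0.499, 95% interval −0.30 to 0.13), and without exosome replicate 1 it was 0.03. The long non-coding gene 9530052E02Rik overlaps Irs2, with the same uncertainty as for Foxo3. Irs1 was the more abundant adaptor on the FPKM scale in every library, and the ratio of Irs1 to Irs2 was 1.84 ± 0.147 with PBS and 1.84 ± 0.255 with exosomes.

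Pik3ip1, the restraint on PI3K, rose the most of the 10 genes. It was at 3.33, 3.94 and 3.04 FPKM with PBS and 6.92, 6.05 and 6.61 with exosomes, so that the lowest exosome library stood well above the highest PBS library. The mean rose 1.90-fold, from 3.44 ± 0.459 to 6.53 ± 0.442 FPKM (log2 change 0.77 ± 0.08, adjusted p = 0.000117). This log2 change stayed between 0.70 and 0.91 under all 13 alternatives, with an adjusted p of at most 0.00203. The authors' deposited table lists 410 mean normalized counts with PBS and 739 with exosomes (adjusted p = 6.17e-13). The long non-coding genes Gm12592 and Gm11944 overlap Pik3ip1. The tested genes outside these 10 with the nearest profile over the 6 libraries, by root mean square difference of centred log2(FPKM + 1), were Hdac11, a histone deacetylase (0.040), and Dhx58, an RNA sensor of the RIG-I family (0.040). Hdac11 was at 9.90 ± 0.778 FPKM with PBS and 17.3 ± 0.460 with exosomes, and Dhx58 at 0.569 ± 0.159 and 1.59 ± 0.211. Dhx58 passed the filter through its exosome libraries alone, and its nearness holds for the pseudocount of 1: with 0.1 its log2 change was 1.36, against 0.91 for Pik3ip1.

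Ccng2, the cyclin linked to cell cycle exit, went down. Its levels were 20.0, 22.5 and 17.5 FPKM with PBS and 13.8, 14.6 and 16.0 with exosomes. The groups did not overlap, with PBS replicate 3 and exosome replicate 3 the nearest to each other. The fall from 20.0 ± 2.51 to 14.8 ± 1.14 FPKM was a log2 change of −0.40 ± 0.09 (adjusted p = 0.00553) and was called under all 13 alternatives. Its change was opposite in sign to those of Pik3ip1, Foxo1 and Foxo4.

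Cited2 was the most abundant of the 10 genes and lay at percentile 93 of mean FPKM among the tested genes. It was at 69.2, 57.0 and 63.7 FPKM with PBS and 67.6, 68.2 and 69.0 with exosomes. The exosome libraries lay close together, and PBS replicate 1 was above all of them. The log2 change of 0.11 ± 0.06 did not pass (adjusted p = 0.187, 95% interval −0.03 to 0.25), and without PBS replicate 1 it was 0.18 (adjusted p = 0.0476). The authors' deposited table lists 2383 and 2376 mean normalized counts, a 0.997-fold change.

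Bcl6, the repressor best known from germinal centre B cells, fell the most of the 10 genes. It was at 9.46, 7.91 and 12.8 FPKM with PBS and 5.60, 5.63 and 5.28 with exosomes. The PBS libraries spread widely while the exosome libraries lay close together, and the groups did not overlap. The fall from 10.1 ± 2.51 to 5.51 ± 0.195 FPKM was a log2 change of −0.74 ± 0.14 (adjusted p = 0.00344), and it ranged from −0.57 without PBS replicate 3 to −0.89 without PBS replicate 2. The long non-coding gene Gm31527 overlaps Bcl6.

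The summed levels of leukocyte and of adipocyte markers moved with Bcl6, but not every marker did. The 11 leukocyte markers in the table summed to 7.82, 7.44 and 11.9 FPKM with PBS (replicates 1, 2 and 3) and to 5.28, 4.95 and 4.46 with exosomes. In this sum PBS replicate 3 was highest and PBS replicate 2 lowest of its group, as for Bcl6. The 6 adipocyte markers summed to 2.24, 1.31 and 3.58 FPKM with PBS and 1.09, 0.759 and 0.799 with exosomes, in the same order among the PBS libraries. Only 1 of these 6 passed the filter, and Cfd and Lep were at 0 in every library. Only 2 of the 11 leukocyte markers passed the filter, Cd14 and Cd68, which were also the highest of the list on average. Cd14 fell from 4.98 ± 1.85 to 2.61 ± 0.745 FPKM (adjusted p = 0.0388). Cd68, at 1.90 ± 0.641 and 1.81 ± 0.330, did not pass the test (adjusted p = 0.878). It did not follow Bcl6, at 1.54, 2.64 and 1.53 FPKM with PBS and 1.44, 1.91 and 2.08 with exosomes. The Cd14 call ended with a replicate block (adjusted p = 0.105), with upper quartile scaling (0.0550), without the filter (0.0677), without PBS replicate 1 (0.0682), without exosome replicate 2 (0.0922) and without exosome replicate 3 (0.127). Csf1r, the receptor of the macrophage growth factor, was picked from the list after its values were seen and was at 1.77, 0.759 and 3.22 FPKM with PBS and at 0.249 to 0.381 with exosomes, whereas the pan-leukocyte marker Ptprc was at most 0.0876 FPKM in any library. The part of these transcripts in the Bcl6 result was not tested, and in bulk RNA fewer cells of a type and less RNA per cell cannot be told apart. The genes nearest to Bcl6 in profile were Steap1, a membrane metalloreductase family member (root mean square difference 0.062), at 33.6 ± 7.42 FPKM with PBS and 20.9 ± 0.237 with exosomes, and the matrix gene Tnc (0.069), at 79.8 ± 22.7 and 46.6 ± 2.05. The Tnc call ended in 4 of 13 alternatives, with an adjusted p of up to 0.0908.

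**Figure D3:**
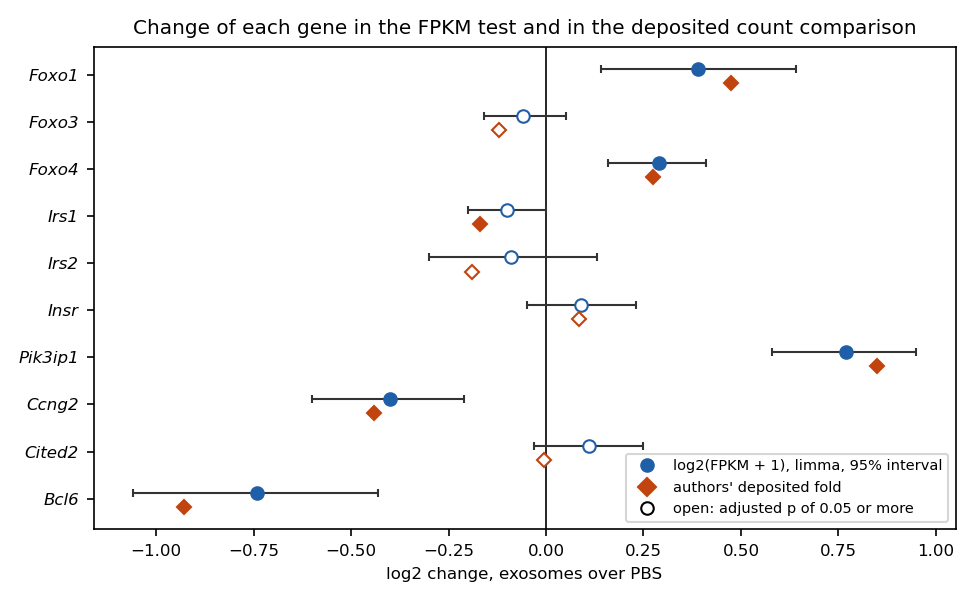
Log2 change of exosomes over PBS for each gene (x axis), as limma's estimate on log2(FPKM + 1) with its 95% interval (circles) and as the log2 of the fold in the authors' deposited table (diamonds); open symbols have an adjusted p of 0.05 or more. Both sources call Foxo1, Foxo4, Pik3ip1, Ccng2 and Bcl6, and the deposited comparison alone calls Irs1.

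The count-based comparison in the authors' deposited table called 6 of the 10 genes, and 25.9% of the 15844 genes to which it gives an adjusted p. Those shares are for unlike sets: all 10 genes passed the filter on low values, as did only 10274 genes of the table. The 5 genes called here were called there in the same direction, and Irs1 was the additional one. On that scale Bcl6 was at 0.525-fold, Ccng2 at 0.737-fold, Foxo4 at 1.21-fold and Foxo1 at 1.39-fold in the authors' deposited table, each as exosomes over PBS. Both analyses use the same 6 libraries, so they are not independent. The least counted gene was Foxo1, with 299 mean normalized counts with PBS and 417 with exosomes in the authors' deposited table, and the most counted Irs1, with 2919 and 2595.

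Most other genes that pass the insulin signal forward did not pass the test. Of 26 tested genes 4 rose (15.4%), 3 fell (11.5%) and 19 did not pass, where 25.4% of all tested genes rose and 18.4% fell. With median ratio scaling 5 of them fell, and the lowered count over all tested genes went from 1889 to 2276. The median log2 change was 0.02 in this list, against 0.04 over all tested genes. The PI3K regulatory subunit genes Pik3r2 and Pik3r1 rose, Pik3r2 to 32.2 ± 1.34 FPKM from 25.2 ± 0.878 (adjusted p = 0.000594) and Pik3r1 to 13.0 ± 0.536 from 10.7 ± 0.360 (adjusted p = 0.00381). Mapkap1, a subunit of the kinase complex mTORC2, rose 1.23-fold and the docking protein gene Gab1 1.27-fold, a call that ended in 7 of the 12 alternatives that tested it (adjusted p up to 0.123). Pik3cb, a PI3K catalytic subunit, fell from 5.80 ± 0.492 to 4.34 ± 0.459 FPKM (adjusted p = 0.00671), and Rheb, the GTPase that activates mTORC1, from 59.5 ± 2.22 to 53.4 ± 1.60 (adjusted p = 0.0214, but 0.0887 without PBS replicate 1 and 0.0801 without exosome replicate 2). The largest fall was in Sgk1, a kinase that phosphorylates FOXO proteins alongside AKT, at 69.6, 62.1 and 66.4 FPKM with PBS and 37.6, 36.4 and 38.1 with exosomes (log2 change −0.80 ± 0.05, adjusted p = 4.29e-06).

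Genes that restrain insulin and PI3K signalling were called at 52.2%, against 43.8% of all tested genes. Of 23 tested genes 5 rose (21.7%, against 25.4% of all), 7 fell (30.4%, against 18.4%) and 11 did not pass, with a median of −0.03. Without PBS replicate 1 or without exosome replicate 2 the lowered count was 4. The lowered count over all tested genes fell too, from 1889 to 1371 without PBS replicate 1 and to 1524 without exosome replicate 2. Trib3, a pseudokinase that binds AKT, was at 7.97, 12.2 and 8.24 FPKM with PBS and 22.6, 20.9 and 26.1 with exosomes, a 2.45-fold rise (adjusted p = 0.000482). Deptor, an mTOR inhibitor, rose 1.61-fold, from 2.03 ± 0.301 to 3.25 ± 0.207 FPKM (adjusted p = 0.00144), and the receptor adaptor gene Grb10 rose 1.18-fold. Trib1, a relative of Trib3, fell from 11.2 ± 0.484 to 6.01 ± 0.659 FPKM (adjusted p = 3.75e-05). Falls were also found in Socs3, a cytokine-induced inhibitor of receptor signalling (log2 change −0.52), in Ddit4, a stress-induced mTORC1 inhibitor (−0.50), and in Enpp1, a membrane protein that binds the insulin receptor (−0.46).

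Among proteins that modify or transport FOXO factors 6 of 28 tested genes rose (21.4%), 6 fell (21.4%) and 16 did not pass, with a median of −0.04. The called share of 42.9% is near the 43.8% of all tested genes, of which 25.4% rose and 18.4% fell. With a replicate block 3 rose, and with median ratio scaling 10 fell. The counts over all tested genes moved as well. With the replicate block 2288 rose, against 2612 as reported, and with median ratio scaling 2276 fell, against 1889. Kat2b, an acetyltransferase, rose from 8.49 ± 0.622 to 12.2 ± 0.426 FPKM (adjusted p = 0.000268), and the deacetylase gene Sirt3 from 1.44 ± 0.163 to 2.28 ± 0.192 (adjusted p = 0.00193). Xpo1, the exportin that carries FOXO proteins out of the nucleus, fell from 38.4 ± 2.48 to 29.5 ± 1.22 FPKM (adjusted p = 0.000888). The ubiquitin ligase gene Mdm2 and the deubiquitinase gene Usp7 fell by 0.39 and 0.24 on the log2 scale. Of the 6 14-3-3 genes tested, Ywhag (log2 change −0.24, adjusted p = 0.00304) and Ywhah (−0.18, adjusted p = 0.0132, but 0.0593 without PBS replicate 1; named after its value was seen) fell, and Ywhab, Ywhae and Ywhaq did not pass. Ywhaz rose (0.14, adjusted p = 0.0175), but its call ended with a replicate block (0.0575), without PBS replicate 1 (0.0566), without PBS replicate 3 (0.0580) and without exosome replicate 2 (0.0535). The kinase gene Stk3 rose by 0.25 on the log2 scale.

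Genes described elsewhere as FOXO targets, none of them among the 10, rose in 17 of 38 tested cases (44.7%, against 25.4% of all tested genes), fell in 8 (21.1%, against 18.4%) and did not pass in 13. Their median log2 change was 0.14, against 0.04 over all tested genes. Like the other lists, this one was chosen with earlier results of these data known. Its difference from all tested genes is therefore descriptive only and was not tested. Without exosome replicate 1 the raised count was 13, and that over all tested genes went from 2612 to 2032. The list covers genes that FOXO factors activate and some, such as the cyclin D genes, that they repress. Bmf, a pro-apoptotic BH3-only gene, was at 2.14, 2.42 and 2.01 FPKM with PBS and 8.38, 8.46 and 8.96 with exosomes (log2 change 1.59 ± 0.07, adjusted p = 5.42e-07). Sepp1, which encodes the selenium carrier selenoprotein P, rose 2.83-fold, the lipoprotein lipase gene Lpl 2.04-fold and the autophagy conjugation gene Atg12 1.75-fold in mean FPKM. The cell cycle inhibitor gene Cdkn1b and the pro-apoptotic gene Bcl2l11, which stand among the other raised genes, rose by 0.45 and 0.62 on the log2 scale and were singled out after their values were seen.

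Lowered genes of the same list included a mitophagy receptor, a cell cycle inhibitor and an antioxidant enzyme. Bnip3, the mitophagy receptor, was at 47.6, 54.8 and 44.0 FPKM with PBS and 16.4, 16.5 and 17.1 with exosomes (log2 change −1.49 ± 0.07, adjusted p = 1.15e-06). Cdkn1a, which encodes p21, and Sod2, the mitochondrial superoxide dismutase, both fell by 0.44 on the log2 scale. Ccnd1, the cyclin D1 gene, fell from 41.6 ± 2.10 to 32.2 ± 3.01 FPKM (adjusted p = 0.00252).

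**Figure D4:**
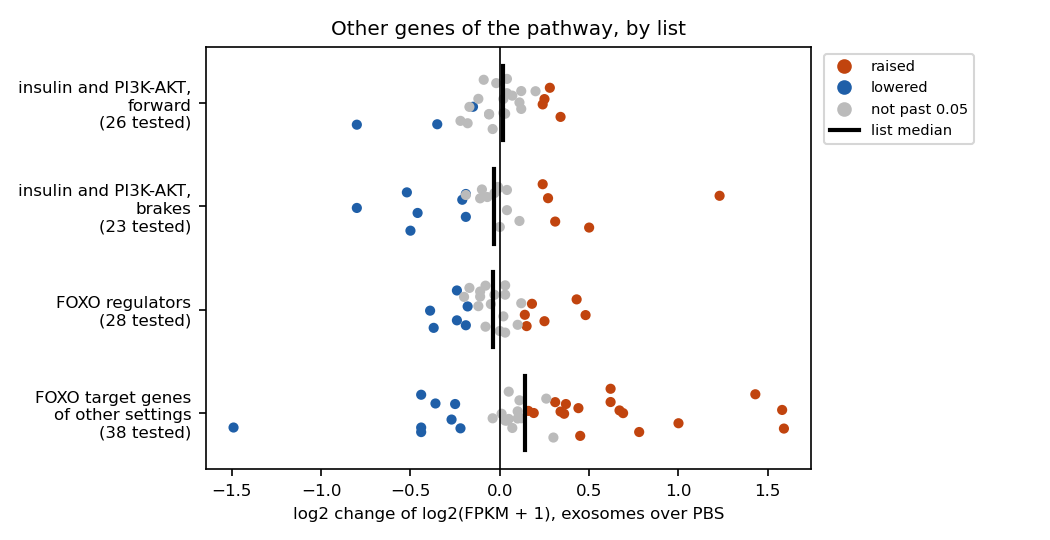
Log2 change of every tested gene in 4 pathway lists (x axis), 1 point per gene, orange where raised, blue where lowered and grey where not past an adjusted p of 0.05, with the list median as a black bar; vertical scatter within a list has no meaning. Medians lie between −0.04 and 0.14, with Sgk1, Trib3, Bmf and Bnip3 among the outermost points.

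The plot of changes by setting sets the analysis as reported beside its 13 alternatives for each gene. The size of the Bcl6 change varied the most among the 10 genes, from −0.89 to −0.57, and that of Foxo3 stayed between −0.09 and −0.03.

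**Figure D5:**
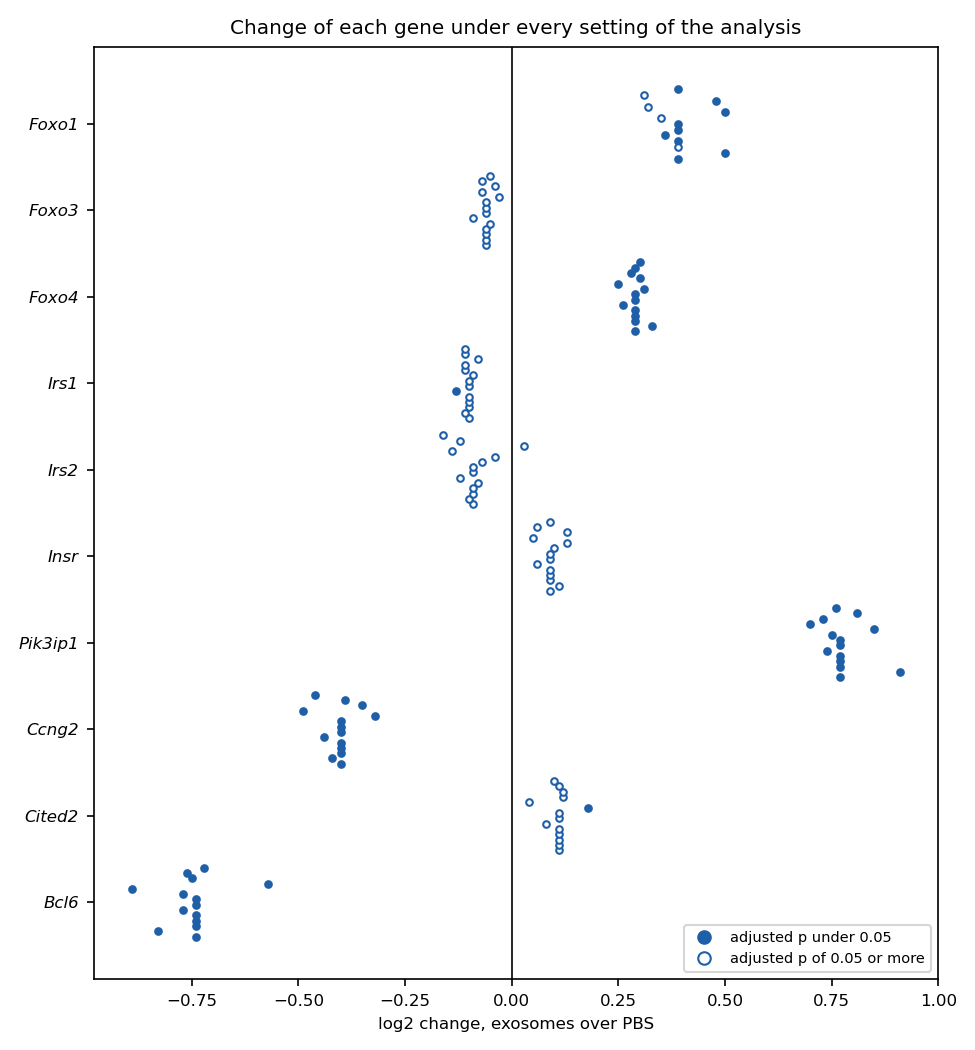
Log2 change of each gene (x axis) in the analysis as reported and in each alternative (1 point per setting, filled where the adjusted p was under 0.05). Foxo4, Pik3ip1, Ccng2 and Bcl6 are filled throughout, Foxo1 is open in 4 settings, Irs1 and Cited2 are each filled in 1, and Irs2 crosses 0 in 1.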

How the data were processed

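RNA was extracted with the mirVana kit and sequenced as paired ends from TruSeq Stranded mRNA libraries on an Illumina HiSeq, per the labels' protocols. The authors used Trimmomatic, HISAT2, Bowtie2, Cufflinks, StringTie, HTSeq, SAMtools, DESeq and mm9, in roles not given, per the submitters' processing notes. The deposited values per library carry no unit and were read as FPKM, from Cufflinks in those notes and the unequal column sums. The authors' deposited table also gives the mean normalized count signal of each group, a linear fold (ratio) and, per the file headers, a p-value with its adjusted form, attributed here to the DESeq of those notes. Groups came from the sample titles and columns from the sample numbers in the labels. In 27 rows a gene name turned into a date was restored by its Entrez identifier, and 0 pairs of libraries were identical. Reads per library were estimated from the smallest steps of the deposited group means, and counts of single genes per library were not used, so the test foreseen for counts was not run.

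Genes reaching 1 FPKM in any 3 libraries (10274) were fitted as log2(FPKM + 1) with limma 3.58.1 in R 4.3.3 (trend, robust, group as the only term, two-sided, Benjamini-Hochberg over all tested genes), which was tested on simulated data. The pseudocount of 1 shrinks changes of low genes. Errors are SD of FPKM and SE of log2 changes, with n = 3 libraries per group. Text names all 10 genes, up to 4 raised and 4 lowered genes of smallest adjusted p in each of 4 pathway lists (some items are not reported here), and the 2 nearest profiles of called genes with an absolute log2 change of at least 0.5. The genes and lists were chosen with earlier results of these data known. Alternatives were a pseudocount of 0.1, no filter, a filter at 5 FPKM, upper quartile and median ratio scaling, limma without trend and robust estimation, a replicate block and leaving out each library. Promoters came from RefSeq (GRCm38.p6), and no other coordinates are given because the study used mm9.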

Additional observations from a re-analysis of the deposited data

How the results depend on the processing

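The calls of Foxo4, Pik3ip1, Ccng2 and Bcl6 and the lack of a call for Foxo3 and Insr held under all 13 alternatives, and the counts of raised and lowered genes among the 10 ranged from 2 to 3 each. Leaving out single libraries gave 2 to 3 raised and 2 lowered. At 5 FPKM Foxo1 was not tested, and its call ended in 4 of the other 12 alternatives. The Irs2 change turned to 0.03 without exosome replicate 1 (adjusted p = 0.801), and leaving out single libraries gave −0.16 to 0.03, with an adjusted p of 0.220 to 0.801 over all alternatives. For Cd68 they gave −0.12 to 0.14. Of 40 other named genes 33 kept their direction and their call, or lack of one, in every alternative that tested them. Among these 33, Dhx58 was tested in 9 of the 13 alternatives, and Deptor, Sirt3 and Bcl2l11 in 12 each. With median ratio scaling 5 forward signalling genes (3 as reported) and 10 FOXO regulators (6 as reported) were lowered. Over all tested genes that scaling gave 2250 raised and 2276 lowered, against 2612 and 1889 as reported. Among the restraining genes the lowered count was 4 to 8 with 1 library left out, 4 without PBS replicate 1 or exosome replicate 2, against 7 as reported. The causes of these shifts were not tested. Values of low genes such as Foxo1 and of 3 libraries per group limit the precision.

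Replicate numbers are shared by the groups. Deviations of same-numbered libraries from their group means correlated at −0.12, −0.02 and −0.29. A replicate block lowered the number of called genes from 4501 to 3914 and that of raised FOXO regulators from 6 to 3, and left 3 raised and 2 lowered of the 10 genes. By these correlations 0 of the 6 libraries matched best with its own number. The deviations sum to 0 within each group of 3 libraries, so these few correlations cannot exclude a pairing.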
